A study of Mus musculus with 14 samples.

Results

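The nuclear genes that encode the subunits of the mitochondrial respiratory chain were followed in mouse forelimb buds with and without mesenchymal Smad4. The genes were taken by symbol: Nduf genes for complex I, Sdha to Sdhd for complex II, Uqcr genes for complex III, Cox4 to Cox8 genes followed by a, b or c for complex IV, and Atp5 genes for complex V. A gene was kept when it reached a normalised level (CPM) of at least 1, where CPM is the read count relative to library size, in at least 3 of the 14 samples. Of 23284 symbols 82 matched and 76 were kept, 36 for complex I, 4 for complex II, 8 for complex III, 11 for complex IV and 17 for complex V. Atp5s and Atp5sl match the symbols but are not known as subunits, Ndufa4 is known as a complex IV subunit in spite of its name, and the complex IV genes Cox4i1 and Cox4i2 are not matched and are given apart.

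The forelimb buds came from NMRI embryos that all carried the PrxCreT/+ transgene, which is active in limb bud mesenchyme. The Smad4Δ/Δc embryos had 1 deleted Smad4 allele and 1 floxed allele that the transgene inactivates, and the wild-type embryos were Smad4+/+. Each genotype was sampled at E10.0 (30 somites) and at E10.5 (35 somites), with 3 wild-type and 4 Smad4Δ/Δc embryos per stage, and both forelimb buds of an embryo made 1 sample. Since the transgene acts in the mesenchyme, the ectoderm, blood and vessels of a mutant limb bud keep the floxed Smad4 allele but not the deleted one. In whole limb buds fewer cells of a type and less RNA per cell cannot be told apart.

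The respiratory chain moves electrons from NADH through complex I, or from succinate through complex II, by way of ubiquinone to complex III, cytochrome c and complex IV, where oxygen is reduced. Complexes I, III and IV pump protons, and complex V, the ATP synthase, lets them flow back to make ATP. Nearly all subunits are encoded in the nucleus and a few core subunits in the mitochondrial genome, whose transcripts were not analysed here. SMAD4 is the mediator shared by the BMP and TGFβ pathways.

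Between 34066930 and 61691258 reads per embryo were counted on genes. Smad4 itself had 161 ± 8.43 CPM in wild type against 39.8 ± 4.19 CPM in Smad4Δ/Δc at the earlier stage and 166 ± 2.27 against 37.0 ± 3.43 CPM at the later one (mean ± SD, n = 3 and 4). Smad4Δ/Δc replicates 4 and 5 stood apart at both stages, with 1.72% to 8.05% of their reads on the ribosomal RNA gene Rn45s against 0.151% to 0.478% in the other 10 embryos. No wild-type embryo has a share like theirs, so within a comparison of these replicates with wild type their difference and the genotype cannot be told apart. The other 4 mutants had shares like the wild type, and the counts of called genes are therefore also given for each pair of mutant replicates alone. The summed CPM of 7 limb mesenchyme markers was 1138 ± 90.9 in mutants and 1402 ± 114 in wild type at E10.0. At E10.5 it was 1239 ± 33.6 in mutants and 1505 ± 27.1 in wild type. Prrx1 made the largest part of this sum, and the paper names Prrx2, another of the 7, as a SMAD4 target reduced in mutants. All 7 markers had fitted genotype changes below 0 at both stages with replicates 1 to 3 as the only mutants. With replicates 4 and 5 alone 5 of the 7 did. Tbx5 at E10.5 was at 121 to 144 CPM in mutants and 134 to 136 CPM in wild type. The summed CPM of 4 mesothelium markers was 16.2 ± 6.39 in mutants and 3.35 ± 0.906 in wild type at E10.0, and 2.24 ± 0.858 and 5.14 ± 1.31 CPM at E10.5. The summed levels of endothelial markers ranged from 267 to 344 CPM, of ectoderm markers from 140 to 262 CPM and of neural crest markers from 11.1 to 16.3 CPM over all embryos. Muscle precursor markers were at 33.1 ± 2.32 CPM in wild type against 38.7 ± 3.08 CPM in mutants at E10.0 and at 41.7 ± 2.30 against 31.6 ± 2.05 CPM at E10.5, without overlap at E10.5. Those of erythroid markers ranged from 2690 to 5181 CPM with 1 marker at 0, and those of macrophage markers were 3.61 ± 1.56 CPM in wild type against 6.92 ± 0.613 CPM in mutants at E10.0 and 11.6 ± 0.564 against 15.1 ± 3.24 CPM at E10.5. The part of these differences in the results below was not tested.

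The 76 genes summed to 10370 ± 176 CPM at E10.0 in wild-type and to 9872 ± 266 CPM in Smad4Δ/Δc limb buds. The corresponding sums for E10.5 were 9929 ± 220 and 9649 ± 239 CPM. Per kilobase of coding transcript, complex V was the most highly expressed, with a median of 207 CPM per kb over its genes, against 142 for complex IV, 106 for complex III, 103 for complex II and 60.5 for complex I. Atp5b, which carries the catalytic sites of the ATP synthase head, had the highest level of all at 791 CPM per kb, and Atp5a1, the other large subunit of the head, followed at 471. With the length of all exons merged instead, Atp5a1 stood above Atp5b, at 372 against 358 CPM per kb.

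Grouped by symbol, the highest genes of complexes I, III and IV lay close together, but that of complex I was Ndufa4, known as a complex IV subunit. Ndufa4 reached 344, Uqcrh, the hinge subunit of complex III, 318 and Cox6b1 314 CPM per kb. The next gene of complex I was Ndufb8 at 166 CPM per kb. In complex II, Sdhd, a membrane anchor, had 117 CPM per kb, and the catalytic flavoprotein Sdha 108, the iron-sulfur subunit Sdhb 98.6 and the other anchor Sdhc 36.5. The lowest members were Ndufa4l2 at 0.847, Atp5s at 4.18 and Cox6b2, an isoform known from testis, at 9.32 CPM per kb. Uqcrq, which binds ubiquinone near cytochrome b, was the lowest gene of complex III at 48.9 CPM per kb. Because only uniquely mapped reads were counted, genes with near-identical copies or pseudogenes are measured less completely.

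**Figure D1:**
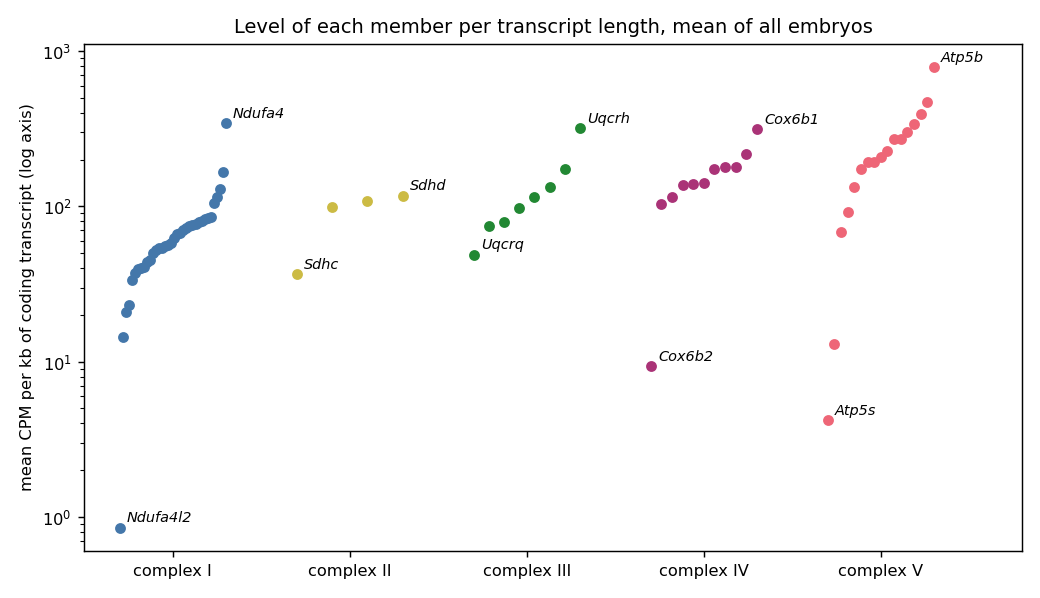
Mean CPM over the 14 embryos per kb of coding transcript (log axis) for the 76 genes, sorted within each complex, each point 1 gene. Atp5b of complex V is the highest at 791 and Ndufa4l2 of complex I the lowest at 0.847.

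The 6 other symbols that matched stayed below the threshold. Cox6a2, Cox7a1 and Cox8b are known as heart and skeletal muscle isoforms, Cox7b2 and Cox8c are known from testis. Cox7a1 had a mean of 0.274 CPM. Ndufs5, a complex I subunit that every cell uses, was listed at 0 reads in all 14 samples, which does not show that it was not expressed. Just above the threshold, Ndufa4l2 reached 1 CPM in 5 samples, all at E10.0, so a fall of this gene with stage was partly built into its selection.

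Promoters of these genes are known to hold sites of a few factors, among them NRF1, GABP of the ETS family, YY1 and SP1. In the RefSeq promoter table (GRCm38.p6, 250 bases before to 50 bases after each start) 65 of the 76 genes were found, with 71 promoters. The letters GCATGCG of the NRF1 site stood on either strand in 15.5% of these promoters against 3.58% of all 32851, and the ETS letters CCGGAAG in 22.5% against 8.86%. The YY1 letters AGATGGC stood in 16.9% against 6.40%, and the SP1 letters GGGCGGG in 33.8% against 25.6%. The letters CAGACA, related to SMAD sites, stood in 19.7% of the members' promoters and in 21.0% of all. A match describes these letters in the window and is not a binding site. Atp5j was the gene with matches to all of NRF1, ETS, YY1 and SP1, and Cox6a1 and Sdhb matched NRF1, ETS and SP1.

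The 170 bases before the start are shown for the 3 genes of subunit c of the ATP synthase, which encode the same mature protein of the proton-carrying ring and are described singly below, and for Cox6a1, which has matches to 3 of the motifs, and Uqcr11, whose level varied most between embryos of the same group. Capitals mark matches to the NRF1, ETS or SP1 letters on either strand that lie wholly within the stretch.
Atp5g1 (chr11:96075632-96075801, minus strand): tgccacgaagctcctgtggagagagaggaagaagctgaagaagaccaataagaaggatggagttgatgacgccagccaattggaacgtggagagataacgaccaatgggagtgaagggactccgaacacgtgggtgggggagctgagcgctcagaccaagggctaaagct
Atp5g2 (chr15:102671048-102671217, minus strand): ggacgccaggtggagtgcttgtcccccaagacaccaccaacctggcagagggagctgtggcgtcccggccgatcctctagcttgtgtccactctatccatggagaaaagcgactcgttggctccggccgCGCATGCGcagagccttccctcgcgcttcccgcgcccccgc
Atp5g3 (chr2:73911327-73911496, minus strand): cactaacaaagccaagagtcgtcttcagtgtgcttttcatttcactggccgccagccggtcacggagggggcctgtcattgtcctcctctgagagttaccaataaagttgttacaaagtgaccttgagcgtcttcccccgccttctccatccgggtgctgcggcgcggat
Cox6a1 (chr5:115348959-115349128, minus strand): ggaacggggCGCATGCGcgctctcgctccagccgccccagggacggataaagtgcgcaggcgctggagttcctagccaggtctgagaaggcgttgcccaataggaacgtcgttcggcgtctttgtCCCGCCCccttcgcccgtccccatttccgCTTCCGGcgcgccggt
Uqcr11 (chr10:80406822-80406991, minus strand): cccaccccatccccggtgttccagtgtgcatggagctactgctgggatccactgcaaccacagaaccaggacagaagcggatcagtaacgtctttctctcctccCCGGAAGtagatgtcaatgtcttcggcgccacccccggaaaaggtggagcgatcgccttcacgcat
Within the stretch Atp5g2 and Cox6a1 hold the NRF1 letters, where the matches on the opposite strands overlap, and Cox6a1 and Uqcr11 the ETS letters. Matches that cross the start are not marked: NRF1 letters in Uqcr11 and SP1 letters in Atp5g2, both from base -5. Atp5g1 and Atp5g3 had none of the 5 sets of letters in the whole window of 300 bases, which says nothing about the factors themselves.

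Whether loss of mesenchymal Smad4 changes the respiratory chain genes was asked first at E10.0. Differentially expressed genes (DEGs) were those that changed by 1.2-fold or more and had an adjusted p (false discovery rate, FDR) no higher than 0.1 in edgeR's exact test over 12393 genes. None of the 73 members tested was higher and none was lower in Smad4Δ/Δc, where 3.33% of all genes were higher and 3.28% lower. In the exact test 9 members had an unadjusted p under 0.05, all with lower levels in the mutants. Neither edgeR's quasi-likelihood test nor DESeq2 called a member, with 11 and 9 at an unadjusted p under 0.05. Unless the share of all genes is named, counts at an unadjusted p here and below describe the members only. The fitted change lay below 0 for 56 of the 73 genes, with a median of -0.071 on the log2 scale and a range from -0.68 to 0.13, against a median of -0.017 over all genes. The members' median ranged from -0.0996 to -0.043 when 1 embryo was left out, the value nearest to 0 being that without wild-type replicate 2 of E10.0. All 4 mutants lay below all 3 wild-type embryos for 13 members and above for none, and over all genes such separation was found for 9.78% below and 8.07% above.

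With all 4 mutants the median lay below 0 in every complex. The medians were -0.065 for the 34 genes tested of complex I, -0.082 for the 4 of complex II, -0.099 for the 8 of complex III, -0.089 for the 10 of complex IV and -0.098 for the 17 of complex V. The 7 nuclear core genes of complex I had a median of -0.17 and the accessory genes of complex I one of -0.063. With replicates 1 and 3 as the only mutants the medians of complexes I to V were -0.068, -0.064, -0.097, -0.0062 and -0.066, and with replicates 4 and 5 alone -0.020, -0.074, 0.024, -0.093 and -0.075. By length of merged exons, the 25 members under 1 kb had a median of -0.098 and the 371 other genes of that length one of -0.064. From 1 to 2 kb the medians were -0.076 for 24 members and -0.065 for 1660 other genes, and over 2 kb -0.051 for 24 members and -0.0078 for 10087 other genes. Merged exons can be far longer than the coding transcript, so genes of 1 class here and below need not have transcripts of like length. Ndufb2 has 5628 merged bases and a coding transcript of 455, and Ndufb7 has 4522 and 623. The part of length in the members' values was not tested.

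**Figure D2:**
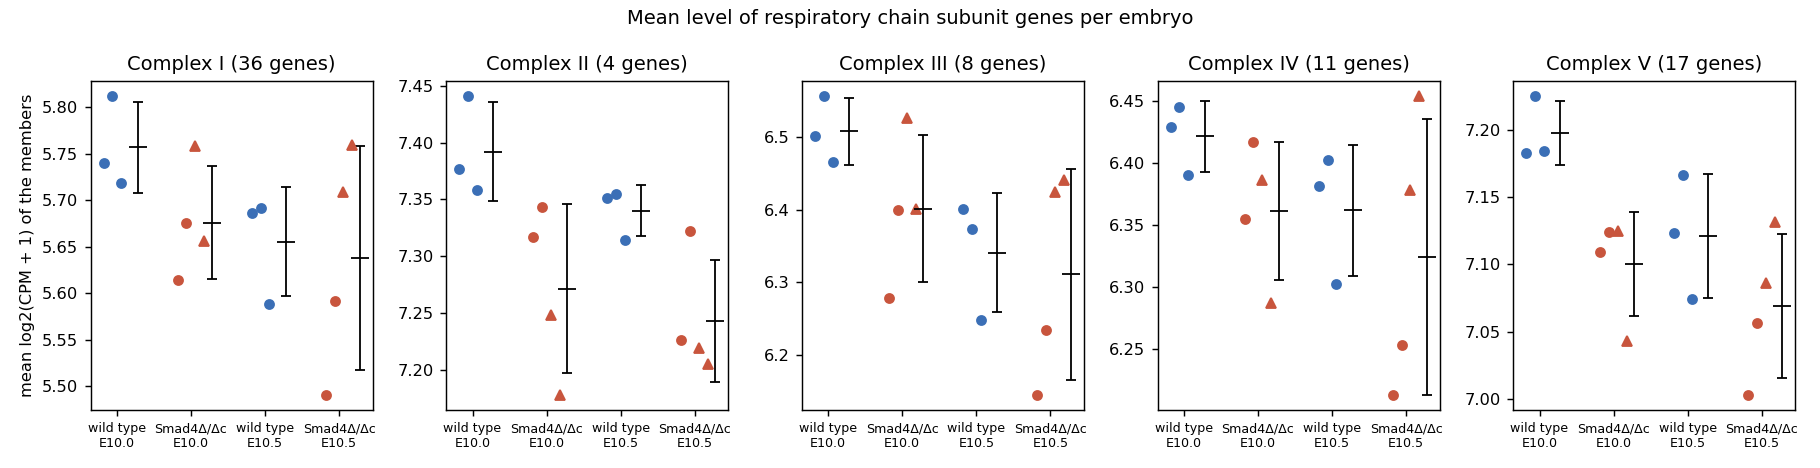
Mean log2(CPM + 1) over the genes of each complex (y axis, scale differs by panel and does not start at 0) in each embryo of the 4 groups, with circles for replicates 1 to 3 and triangles for Smad4Δ/Δc replicates 4 and 5; black marks give the mean and SD. For complex V all 4 mutants lie at 7.04 to 7.13 at E10.0, below the wild-type embryos at 7.18 to 7.23.

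Uqcrc1 and Ndufv1 passed the FDR threshold at E10.0 but not the fold change; they lie outside the rule for naming genes and were chosen after their values were seen. Uqcrc1 is a core subunit of complex III. Its level was 211, 213 and 221 CPM in wild type and 174, 190, 195 and 179 CPM in Smad4Δ/Δc, a difference of -0.22 ± 0.042 on the log2 scale (± SE, FDR = 0.0918). Every mutant lay below every wild-type embryo. Ndufv1, which binds NADH at the entry of complex I, was at 110, 112 and 113 CPM in wild type and at 82.6, 95.4, 106 and 92.6 CPM in mutants (-0.25 ± 0.074, FDR = 0.093). The mutants were again all lower and more spread than the wild-type embryos. With replicates 1 and 3 alone the changes were -0.24 for Uqcrc1 (FDR = 0.0453) and -0.33 for Ndufv1 (FDR = 0.00858), and with replicates 4 and 5 alone -0.18 (FDR = 0.111) and -0.15 (FDR = 0.236). Of all genes, 3.51% were lower at this FDR without regard to the fold change.

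At E10.0 the count of called members depended on the Smad4Δ/Δc replicates used. With replicates 1 and 3 alone, 10 members were lower, against 11.0% of all genes lower in the same fit: Atp5d, Ndufa11, Ndufa13, Ndufa2, Ndufb7, Ndufs7, Ndufv1, Uqcr10, Uqcr11 and Uqcrq. With replicates 4 and 5 alone Atp5g3 and Sdhc were lower and none of these 10, where 5.06% of all genes were lower. With replicates 1 and 3 alone 17 of 73 members and 3590 of 12393 genes had an unadjusted p under 0.05. With replicates 4 and 5 alone 17 of 73 members and 3051 of 12393 genes had one. Leaving out Smad4Δ/Δc replicate 4 alone of E10.0 gave 5 lower members, where 4.97% of all genes were lower, and leaving out replicate 3 of E10.0 gave 1 (Sdhc), where 3.05% were lower. Leaving out Smad4Δ/Δc replicate 1 of E10.5, which enters only the estimate of the spread, also gave 1 (Ndufa2), where 3.87% were lower.

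At E10.5 no member was called higher or lower in Smad4Δ/Δc, where 2.19% of all genes were higher and 1.54% lower. Neither edgeR's quasi-likelihood test nor DESeq2 called a member, with 4 at an unadjusted p under 0.05 in each. In the exact test Ndufa9 alone had an unadjusted p under 0.05, with 110, 115 and 113 CPM in wild type and 102, 104, 99.9 and 99.9 CPM in Smad4Δ/Δc (-0.15 ± 0.023, FDR = 0.463). This accessory subunit of complex I was chosen after its value was seen. The mutants also lay below the wild type for Ndufa9 at E10.0, at 97.5 to 106 against 109 to 115 CPM. The median change of the members was -0.023 and 50 of 73 lay below 0, with medians between -0.0016 for complex I and -0.061 for complex II. By length class, in the order used for E10.0, the members' medians were -0.038, -0.022 and -0.023. Those of the other genes were -0.0175, -0.030 and -0.0075. Above 0 lay 32.0%, 33.3% and 29.2% of the members and 45.3%, 40.2% and 47.7% of the other genes. The direction of the members' median was not stable: it was -0.11 with replicates 1 and 2 as the only mutants, 0.045 with replicates 4 and 5 alone, and 0.0036 without Smad4Δ/Δc replicate 1 of E10.5, over a range down to -0.070 without replicate 5. Mutants lay wholly below wild type for 7 members and wholly above for 1 (Ndufs4), where the shares over all genes were 6.40% and 6.59%. Atp5a1 and Ndufa9 were among the 7 and among the 13 of E10.0.

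The Smad4Δ/Δc replicates moved the values at E10.5 as well. With replicates 1 and 2 alone no member was called, where 1.84% of all genes were lower. In that fit 15 of 73 members and 1798 of 12393 genes had an unadjusted p under 0.05. With replicates 4 and 5 alone 8 members were higher and 2 lower, against 5.90% and 5.86% of all genes. The 8 higher were Cox6a1, Cox6b1, Ndufa12, Ndufb10, Ndufb7, Ndufs6, Ndufv3 and Uqcr11, and the 2 lower were Atp5g3 and Sdhc.

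**Figure D3:**
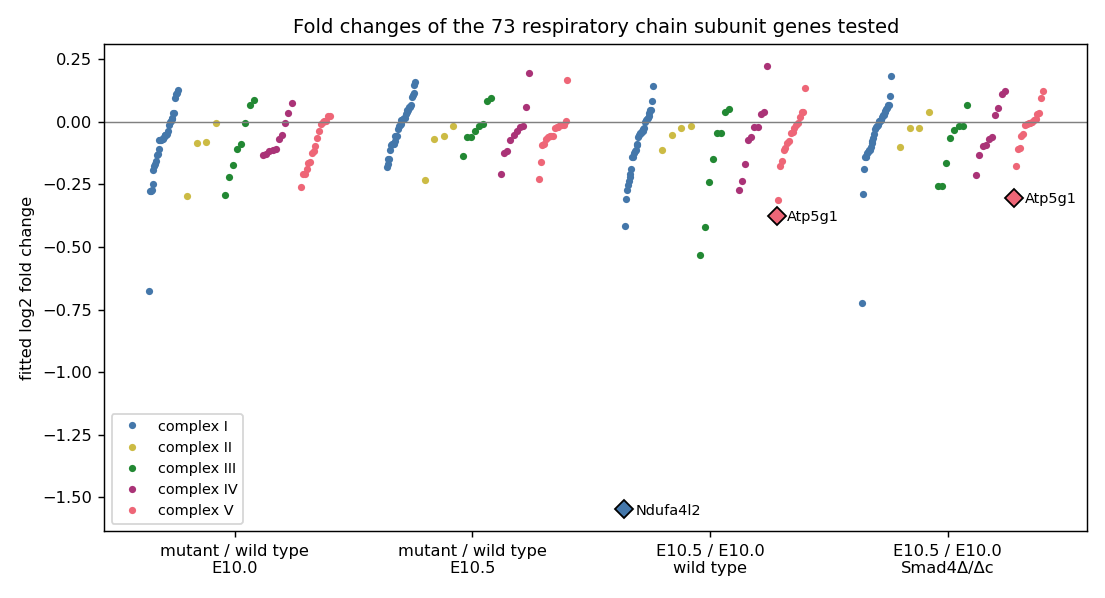
Fitted log2 fold changes of the 73 autosomal members in the 4 comparisons, coloured by complex; diamonds with names mark the genes past both thresholds. The values at E10.5 between genotypes lie from -0.23 to 0.19, and the 3 called values are Ndufa4l2 and Atp5g1 from E10.0 to E10.5 in wild type and Atp5g1 in Smad4Δ/Δc.

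The stages were compared within each genotype. In wild type 2 members were lower at E10.5 than at E10.0 and none was higher, where 4.74% of all genes were lower and 5.39% higher. Of the 2, Ndufa4l2 passed the threshold of 1 CPM only through E10.0 samples, so it had to be lower at E10.5 and its call is no support, which leaves Atp5g1. The median change was -0.054, 55 of the 73 genes lay below 0 and 8 had an unadjusted p under 0.05, all lower. By length of merged exons, the members' medians were -0.063 under 1 kb, -0.081 from 1 to 2 kb and -0.032 over 2 kb. Those of the other genes were -0.079, -0.056 and 6.92e-05, and the part of length was not tested. All E10.5 embryos lay below all E10.0 embryos for 25 members and above for 2 (Atp5j and Ndufs1), and over all genes the shares were 20.4% and 16.6%. In Smad4Δ/Δc 1 member was lower and none higher, where 8.40% of all genes were lower and 10.8% higher. There the median was -0.021, but 0.0054 with upper-quartile factors and 0.050 with mutant replicates 4 and 5 alone, against -0.087 with replicates 1 to 3 alone. With 1 embryo left out it ranged from -0.054 to -0.0088. Below 0 lay 46 of 73 members, and the stages were separated for 2 members below (Atp5g1 and Atp5b) and for none above, against 8.91% and 11.1% of all genes. By length class the members' medians in Smad4Δ/Δc were -0.050, -0.034 and -0.0086, against -0.057, -0.018 and -0.00085 in the other genes. In neither genotype did a member with a higher level at E10.5 have an unadjusted p under 0.05 in the exact test.

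Atp5g1, 1 of the 3 genes of subunit c (chr11:95930166-95936984 in mm9, minus strand), was the member called in both genotypes. In wild type it went from 119, 132 and 122 CPM at E10.0 to 106, 95.9 and 85.3 CPM at E10.5, a fall by 0.38 ± 0.098 on the log2 scale (FDR = 0.00506). In Smad4Δ/Δc it went from 103, 114, 117 and 108 CPM to 80.2, 86.6, 94.1 and 97.9 CPM (-0.30 ± 0.075, FDR = 0.00465). The stages did not overlap in either genotype. Without wild-type replicate 3 of E10.5 the change in wild type was -0.30 with an FDR of 0.128 (edgeR exact test). Without Smad4Δ/Δc replicate 1 of E10.5 the change in the mutants was -0.25, below the fold change threshold, with an FDR of 0.0297. With Smad4Δ/Δc replicates 4 and 5 alone it was -0.22 (FDR = 0.142), and with replicates 1 to 3 alone -0.38 (FDR = 0.00539).

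Ndufa4l2 (chr10:126951995-126954208 in mm9, plus strand) is known as a gene that hypoxia induces. It was read at 13 to 89 counts per embryo, and its selection through E10.0 samples makes its stage values a description. In wild type it went from 1.10, 1.82 and 1.30 CPM to 0.793, 0.373 and 0.284 CPM, with a fitted log2 change of -1.55. In Smad4Δ/Δc it went from 0.753, 1.07, 1.09 and 0.590 CPM to 0.338, 0.312, 0.708 and 0.847 CPM (-0.72). The stages overlapped in the mutants, where replicates 4 and 5 held the higher values at E10.5, and with replicates 1 to 3 alone the fitted change was -1.48. The difference of the stage change between the genotypes was 0.81 on the log2 scale and did not pass the test (FDR = 0.95 in edgeR's quasi-likelihood test of the interaction).

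Over all 73 members the interaction of stage and genotype called none, where 0.186% of all genes passed the FDR threshold, and DESeq2 called none as well. In each test 1 member had an unadjusted p under 0.05.

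More members passed the stage comparisons when Smad4Δ/Δc replicates 4 and 5 were left out. In wild type 8 were then lower, against 7.70% of all genes: Atp5d, Atp5g1, Cox7c, Ndufa11, Ndufa4l2, Ndufs7, Uqcr11 and Uqcrq. In Smad4Δ/Δc 6 were lower, against 7.87% of all genes: Atp5g1, Cox7c, Cox8a, Ndufa4l2, Ndufa7 and Ndufb4. Both counts include Ndufa4l2, whose call is no support because it was selected through E10.0 samples. With replicates 4 and 5 as the only mutants, 7 members were lower in wild type, where 7.54% of all genes were lower. In Smad4Δ/Δc Ndufs4 alone was then called, as higher at E10.5 (0.35, FDR = 0.00286), where 7.92% of all genes were higher.

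**Figure D4:**
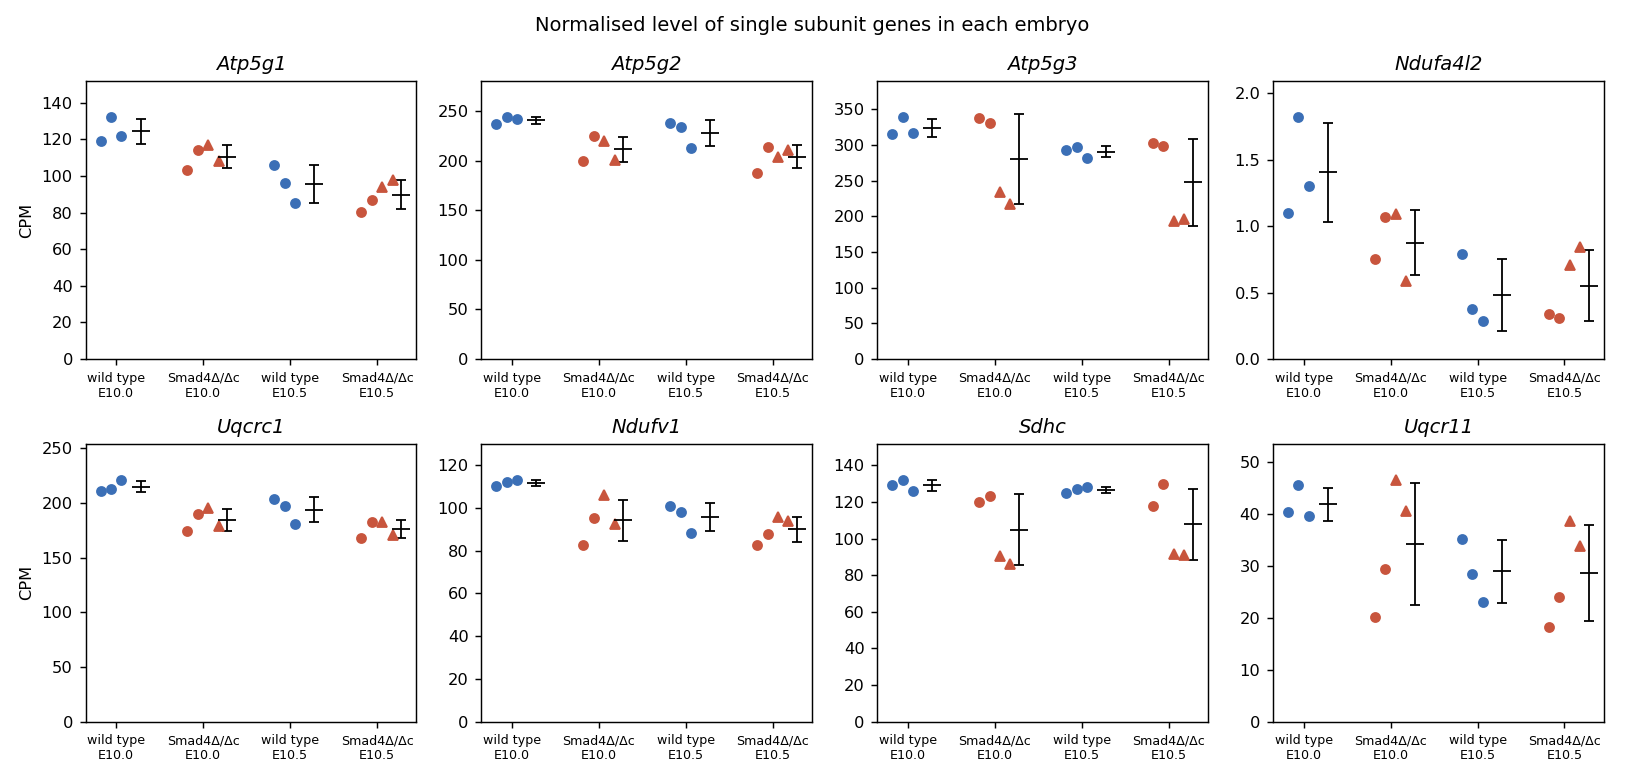
CPM (y axis from 0) of 8 members in each embryo of the 4 groups, circles for replicates 1 to 3, triangles for Smad4Δ/Δc replicates 4 and 5, black marks for the mean and SD. Atp5g1 is lower at E10.5 in both genotypes, and Atp5g3 and Sdhc are low and Uqcr11 is high in the triangles.

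Of the CPM of the 3 subunit c genes, Atp5g1 took 18% ± 0.379 in wild type at E10.0 and 15.5% ± 0.956 at E10.5 (SD, n = 3). In Smad4Δ/Δc it took 18.5% ± 2.28 and 16.7% ± 2.90 (n = 4), and there the stages overlapped. The other subunit c genes were not called with stage in either genotype. Atp5g2 had 237, 244 and 242 CPM in wild type and 200, 225, 220 and 201 CPM in Smad4Δ/Δc at E10.0 (-0.19 ± 0.045, FDR = 0.189), and 213 to 238 and 188 to 214 CPM at E10.5. Its mutants were lower than wild type at E10.0 without overlap and not called. Atp5g3 was at 316, 339 and 317 CPM in wild type and at 338, 331, 234 and 218 CPM in Smad4Δ/Δc at E10.0, and at 293, 297 and 282 against 303, 299, 194 and 196 CPM at E10.5. The low values were those of replicates 4 and 5 at both stages, and the other mutants lay within the wild-type range at E10.0 and above it at E10.5. Per kb of coding transcript, Atp5g3 had 396, Atp5g2 339 and Atp5g1 175 CPM. Reads of these genes that fit more than 1 place were not counted.

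Complex II showed the same division in 1 of its 4 genes. Sdhc was at 129, 132 and 126 CPM in wild type and at 120, 123, 90.6 and 85.9 CPM in Smad4Δ/Δc at E10.0, and at 125, 127 and 128 against 118, 130, 91.7 and 91.2 CPM at E10.5. Replicates 4 and 5 again held the low values. Sdha was among the steadiest members, with 296 to 325 CPM over all 14 embryos and fitted changes between -0.025 and -0.0063 in the 4 comparisons. Sdhb ranged from 96.8 to 126 CPM and Sdhd from 137 to 164 CPM, and neither passed a test in any comparison.

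Among the isoforms of complex IV, Cox6a1, Cox7a2, Cox7a2l and Cox8a were expressed at 63.3 to 148 CPM and Cox6b1 at 140 to 200 CPM, and none was called in the 4 comparisons. Cox6b2 was at 3.91 to 6.42 CPM. Cox4i1, which the symbols leave out, was at 147 to 205 CPM and its isoform Cox4i2, known from lung, at 1.75 to 4.97 CPM, with no call. The 3 members on chromosome X were tested in a fit with all chromosomes. Cox7b lay at 129 to 147 CPM, Ndufa1 at 25.4 to 31.4 CPM and Ndufb11 at 63.3 to 78.4 CPM, with fitted genotype changes between -0.12 and 0.054 and no call.

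The spread between embryos exceeded most of these differences. The SD within groups of log2(CPM + 1), pooled over the 4 groups with 10 degrees of freedom, had a median of 0.108 over the 76 genes, and the median SE of a comparison was 0.0600 to 0.0868. The genes with the largest SD were Uqcr11 (0.408), Uqcrq (0.375), Ndufb7 (0.343), Ndufs7 (0.314) and Atp5g3 (0.269). Smad4Δ/Δc replicates 4 and 5 lay wholly apart from the other mutants in each of these genes at both stages. Uqcr11, a small subunit of complex III, was at 20.2 and 29.3 CPM in mutant replicates 1 and 3 and at 46.5 and 40.6 CPM in replicates 4 and 5 at E10.0, with 39.5 to 45.5 CPM in wild type. At E10.5 it was at 18.2 and 23.9 CPM in replicates 1 and 2 and at 38.6 and 33.8 CPM in replicates 4 and 5, with 23.1 to 35.2 CPM in wild type.

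At both stages 10 members lay wholly higher in replicates 4 and 5 than in the other mutants by at least 1.2-fold, which is 13.2% of the members against 5.75% of all genes: Atp5d, Cox6a1, Ndufa11, Ndufa13, Ndufb7, Ndufs7, Ndufv3, Uqcr10, Uqcr11 and Uqcrq. Atp5g3 and Sdhc lay wholly lower, 2.63% against 4.44%. No test was made of this, since the replicates were set apart after the data were seen. The 10 higher genes had a median G + C of 58.9% in their coding transcript (55.5% to 61.1%) and the members on neither side one of 51.5%. Over all genes the same order was found, with 58.4% for the genes higher in replicates 4 and 5, 50.8% for those on neither side and 43.0% for the lower ones. Of the 10 members lower in Smad4Δ/Δc at E10.0 with replicates 1 and 3 alone, 8 were among these 10, and their median G + C was 58.5% against 50.9% in the other members tested. The part of base composition in these values was not tested.

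**Figure D5:**
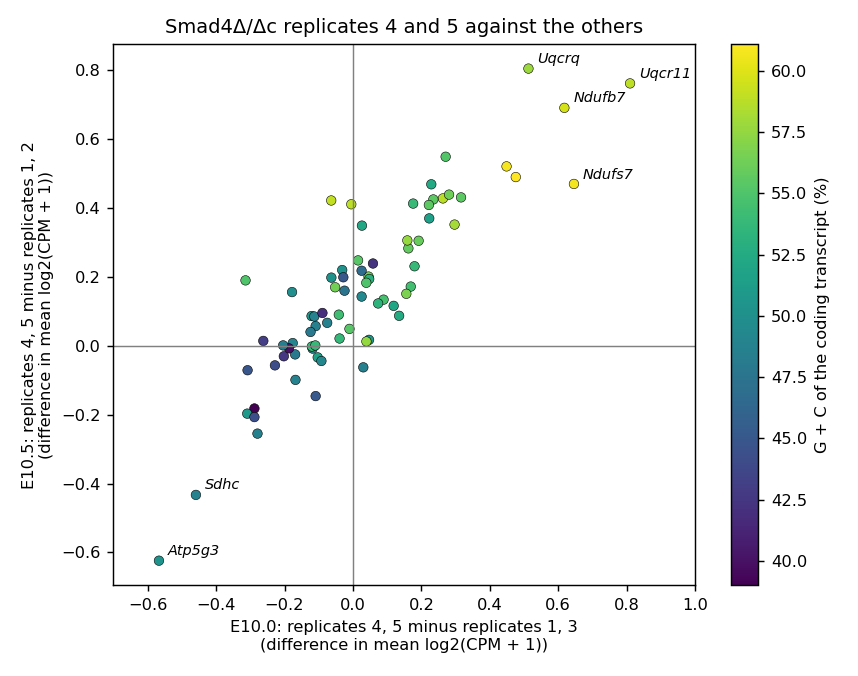
Difference in mean log2(CPM + 1) between Smad4Δ/Δc replicates 4 and 5 and the other mutants at E10.0 (x axis) and E10.5 (y axis) for the 76 genes, coloured by the G + C share of the coding transcript in percent. Uqcr11 differs most upward at E10.0, at 0.81, Atp5g3 most downward at -0.57 and -0.62, and the 24 genes tested with at least 55% G + C have median differences of 0.23 at E10.0 and 0.42 at E10.5.

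Genes that serve the chain were compared with the same fits. Of the carriers, Cycs, the mobile cytochrome c, fell with stage in Smad4Δ/Δc from 325, 301, 272 and 272 CPM to 234, 235, 232 and 250 CPM (-0.30, FDR = 0.00307) and was not called in wild type (-0.19, FDR = 0.235). This was lost without Smad4Δ/Δc replicate 1 of E10.0, where the change of -0.24 stayed under the fold change threshold (FDR = 0.0181), and with replicates 4 and 5 as the only mutants (-0.16, FDR = 0.257). Cyc1, the cytochrome of complex III, was at 129 to 152 CPM in mutants and at 153 to 163 CPM in wild type at E10.0 and not called (-0.19, FDR = 0.191). Of 30 assembly factors tested, Ecsit was lower at E10.5 in wild type (-0.40, FDR = 0.0627) and in Smad4Δ/Δc (-0.36, FDR = 0.0237), and Lrpprc in Smad4Δ/Δc (-0.27, FDR = 0.0332). In Smad4Δ/Δc both were called with replicates 4 and 5 alone and neither with replicates 1 to 3 alone. Over all genes 4.74% were lower at E10.5 in wild type and 8.40% in Smad4Δ/Δc, so these calls do not set assembly factors apart. None of the 15 citrate cycle genes was called in a comparison by edgeR's exact test, with 0 to 3 at an unadjusted p under 0.05.

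Among 19 regulators of mitochondrial biogenesis 1 was lower between the genotypes at E10.0, 1 was higher and 3 were lower with stage in wild type, and 2 were higher and 5 lower with stage in Smad4Δ/Δc, to be read against the shares of all genes above. Esrra, a nuclear receptor that acts with PGC-1 coactivators on respiratory genes, was lower in Smad4Δ/Δc at E10.0, with 5.11, 7.53, 7.92 and 6.30 CPM against 8.72, 10.8 and 9.11 CPM in wild type (-0.51, FDR = 0.0601). This held with replicates 1 and 3 alone (-0.59, FDR = 0.0354) and not with replicates 4 and 5 alone (-0.41, FDR = 0.113). It was also lower at E10.5 than at E10.0 in both genotypes (-0.61 in wild type, FDR = 0.0208, and -0.45 in mutants, FDR = 0.0373), which in mutants was lost with replicates 4 and 5 alone (-0.36, FDR = 0.248). Ppargc1a, the coactivator PGC-1α, rose with stage, from 2.43 to 4.37 CPM up to 6.68 to 8.58 CPM in wild type (1.06, FDR = 0.000101) and from 2.53 to 4.59 CPM up to 6.17 to 7.03 CPM in mutants (0.86, FDR = 0.00015). Its relative Pprc1 fell in both (-0.37, FDR = 0.00878, and -0.47, FDR = 6.85e-06), as did Polg, the mitochondrial DNA polymerase (-0.29, FDR = 0.05, and -0.30, FDR = 0.00603). In Smad4Δ/Δc Peo1, the mitochondrial DNA helicase (-0.30, FDR = 0.00251), and Ppargc1b (-0.57, FDR = 0.0738) fell and Mterfd2 rose (0.39, FDR = 0.000213). With stage in Smad4Δ/Δc, Ppargc1a, Pprc1 and Mterfd2 were called with either pair of replicates alone, Peo1 with replicates 1 to 3 alone, Polg with replicates 4 and 5 alone and Ppargc1b with neither. Nrf1, Gabpa and Yy1, whose motifs are given above, were not called, with fitted changes from -0.038 to 0.014, from -0.055 to 0.080 and from -0.084 to 0.10 over the 4 comparisons. These regulators were not refitted with single embryos left out.

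Ribosomal protein genes were compared by stage as another large group of short nuclear genes. Of the 76 mitochondrial ribosome genes 7 were lower at E10.5 in wild type and 6 in Smad4Δ/Δc, with medians of -0.15 and -0.12 and none higher, where 4.74% and 8.40% of all genes were lower. Of the 74 cytosolic ribosome genes tested 5 and 9 were lower, with medians of -0.18 in both genotypes and none higher. With replicates 1 to 3 as the only mutants 14 mitochondrial and 35 cytosolic ribosome genes were lower in Smad4Δ/Δc, where 7.87% of all genes were lower. With replicates 4 and 5 alone 3 and 3 were lower, where 7.05% of all genes were. Between the genotypes 1 mitochondrial ribosome gene was lower at E10.0, where 3.28% of all genes were lower. In edgeR's exact test none of either group was called at E10.5, with 1 and 2 at an unadjusted p under 0.05. With replicates 1 and 3 alone 4 mitochondrial and 8 cytosolic ribosome genes were lower at E10.0, where 11.0% of all genes were. Higher was 1 cytosolic gene, where 5.13% of all genes were. With replicates 4 and 5 alone 10 mitochondrial and 7 cytosolic genes were higher at E10.5, where 5.90% of all genes were. In that fit 1 and 2 were lower, where 5.86% of all genes were. No test of the difference between these lists and the respiratory chain genes was made.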

How the data were processed

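RNA from both forelimb buds of 1 embryo per replicate was sequenced by the authors as unstranded poly(A) libraries (single reads of 50 cycles), so reads of a gene and of its antisense partner cannot be told apart. The deposited values are raw counts per gene symbol, made by the authors with TopHat2 2.0.13 on mm9 and htseq-count from uniquely mapped reads. Samples were grouped by the labels. Genes on chromosomes X, Y and M (1041 symbols) were left out, as were rows that name no gene, and the 12393 genes that reached 1 CPM in 3 or more samples entered the tests with edgeR 4.0.16 (R 4.3.3), with TMM factors of 0.9343 to 1.035, dispersions over all 14 samples (prior degrees of freedom 10), the exact test and Benjamini-Hochberg adjustment. The interaction was tested by quasi-likelihood. The 3 members on chromosome X come from a fit with all chromosomes. Fold changes are mutant over wild type or E10.5 over E10.0, and SEs come from the spread of log2(CPM + 1) between replicates, which makes them small for genes of few CPM. Depth was 34066930 to 61691258 counts. The code was tested on simulated counts.

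The genes and lists were chosen with earlier results of these data known. Genes were named if called, highest or lowest per length in a complex (by merged exons), a Sdh gene, an isoform, on chromosome X, or close to the threshold, and of the genes left out by symbol Cox4i1, Cox4i2, Cyc1 and Cycs. Values of 1 member are not reported here. Lengths of coding transcripts and the split of Smad4Δ/Δc replicates 4 and 5 from the others were added after the data were seen. All pairs of replicates differed by more than sampling noise (chi-square over its degrees of freedom at least 12.2). Same-numbered Smad4Δ/Δc samples of the 2 stages deviated together (mean r = 0.484, 0.269 to 0.611 over 3 pairs) and were blocked by number in a check. The count of calls between these stages was the same under the block. These samples come from different embryos and are not pairs. Samples of unlike number had a mean r of -0.111 (-0.587 to 0.383 over 13 pairs), highest for replicate 4 of E10.0 with replicate 5 of E10.5. DESeq2 1.42.0, other factors and filters, single embryos left out and a replicate block were the alternatives.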

Additional observations from a re-analysis of the deposited data

Results flagged for a closer look

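Cox6b2 in Smad4Δ/Δc replicate 3 at E10.0 stood at 6.42 CPM, above 3.91, 4.10 and 4.21 CPM in the other mutants of that stage; the gap took a share of 0.880 of the range, above Dixon's limit for 4 samples. In all 56 groups of 4 were examined, and about 1 in 20 is flagged by chance.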

How the results depend on the processing

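The counts of called members were 0, 0, 2, 1 and 0 for the genotypes at E10.0 and E10.5, the stages in wild type and in Smad4Δ/Δc, and the interaction. They were unchanged with edgeR's quasi-likelihood test, DESeq2, RLE or upper-quartile factors, no filter, chromosomes X, Y and M kept, and Rn45s left out. A filter at 5 CPM gave 1 for the stages in wild type, where 3.61% of all genes were lower, and fitting the 2 groups apart 9, where 8.36% were lower. With replicates 1 to 3 only the counts were 10 at E10.0, 8 in wild type and 6 in Smad4Δ/Δc, and with mutant replicates 4 and 5 alone, chosen after seeing the data, 2 at E10.0, 10 at E10.5 and 7 in wild type, with the shares of all genes in the report. Where Ndufa4l2 is counted with stage, its call is no support, since it was selected through E10.0 samples. Leaving out 1 embryo gave 0 to 5 at E10.0, 0 at E10.5, 1 to 4 in wild type, 0 to 3 in Smad4Δ/Δc and 0 for the interaction. In wild type 4 were called without replicate 1 of E10.5 (5.75% of all genes lower) and 1 without replicate 3 (1.65%). In Smad4Δ/Δc 3 were called without replicate 1 of E10.0 (1 higher and 2 lower, 11.7% and 10.4% of all genes) or replicate 5 of E10.0 (all lower, 8.92%). Without replicate 5 of E10.5 there were 2 (both lower, 7.96%) and without replicate 1 of E10.5 there were 0 (8.06%). With upper-quartile factors the members' median for the stages in Smad4Δ/Δc was 0.0054 against -0.021. The cause was not tested. With the replicate number as a block the counts were 12 at E10.0, all lower, where 10.8% of all genes were lower, 0 at E10.5, 5 lower in wild type, where 7.12% were, 1 in Smad4Δ/Δc and 0 for the interaction. Numbers 4 and 5 occur only among the mutants, so under the block these replicates are not compared directly with wild type. Samples of different groups share only a number, since both forelimb buds of an embryo made 1 sample. The mean correlation of same-numbered deviations was -0.007 and -0.156 over 2 pairs each for the genotypes at E10.0 and E10.5. For the stages it was -0.157 over 3 pairs in wild type and 0.484 over 3 pairs in Smad4Δ/Δc.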
